A study of Mus musculus with 25 samples.

Results

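The comparison described here set the mesenchyme of the embryonic salivary gland (SM) against that of the embryonic mammary gland (MM), both at E13.5 of the mouse, where E stands for embryonic day. Its members were chosen by the sample labels alone and comprised 10 of the 25 RNA-Seq libraries of the study, 5 of SM and 5 of MM, and all expressed genes were read in them. The other 15 libraries, 5 each of ventral skin mesenchyme (VM) at E13.5 and of MM and fat pad precursor tissue (FP) at E16.5, entered the statistical fit and are quoted only where a level helps to place a gene. All embryos were of the C57Bl/6JOlaHsd inbred strain with no transgene or treatment, and each library was a pool of mesenchymes from 2 to 3 embryos of 1 litter, dissected by hand after digestion with dispase II and a pancreatin-trypsin mix. Since 3 litters supplied 5 pools per tissue, some pools must share a litter, and the sources used here do not say which. The labels give no sex for E13.5 embryos, whereas older embryos were all female. SM was taken from the submandibular gland and MM from mammary rudiments 1 to 3 of the trunk, so gland and body region cannot be told apart in this design.

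Salivary and mammary glands both form by the growth of an epithelial bud into a surrounding mesenchyme, which supplies growth factors, matrix and positional cues. The salivary epithelium branches early and fast, whereas the mammary bud of this stage is nearly quiescent and branches only days later. The salivary mesenchyme lies in the lower jaw and derives largely from the cranial neural crest. The mammary mesenchyme is a dermal condensation of the trunk that becomes sensitive to sex steroids. The question put to the comparison was which secreted and regulatory genes set the mesenchyme of a fast-branching epithelium apart from that of a slower one.

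The SM libraries held 25209591 to 28019643 counts and the MM libraries 23635931 to 34448304. Mitochondrial genes took 1.38 to 2.36% of counts in SM and 1.83 to 2.39% in MM. Spearman correlations over tested genes were 0.982 to 0.992 between SM pools, 0.984 to 0.995 between MM pools and 0.919 to 0.938 across the tissues. SM pools 2 and 4 and MM pool 3 stood farthest from the median of their tissue, with a median absolute log2 deviation of 0.173, 0.135 and 0.145 against 0.0567 to 0.0953 in the other 7 pools. Levels are given as normalized counts, which are counts scaled by library size and composition to the average library of the study. They are comparable between samples but, not being divided by gene length, not between genes. A gene was called when the edgeR quasi-likelihood test gave an adjusted p under 0.05, the log2 difference was at least 0.58 in size and its mean was above 50 in the higher tissue.

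Of 17657 genes tested, 61.1% had an adjusted p under 0.05 and 5314 met all conditions of a call, which was 30.1%. Of these, 2758 were higher in SM, which was 15.6% of tested genes, and 2556 were lower, which was 14.5%. A log2 difference of at least 2 in size, meaning 4 times or more, was reached by 510 called genes higher in SM, or 2.89% of tested genes, and by 485 lower in SM, or 2.75%, together 5.64%. The median log2 difference of all tested genes was -0.03, with quartiles of -0.57 and 0.44, and the median size among called genes was 1.06. In 4920 of the 5314 called genes, or 92.6%, the 5 values of each tissue did not overlap, as was so for 46.7% of all tested genes. Without SM pool 2, MM pool 3 and SM pool 1, which held the most muscle transcripts, 5665 genes were called. The counts of list members below are read against these shares.

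**Figure D1:**
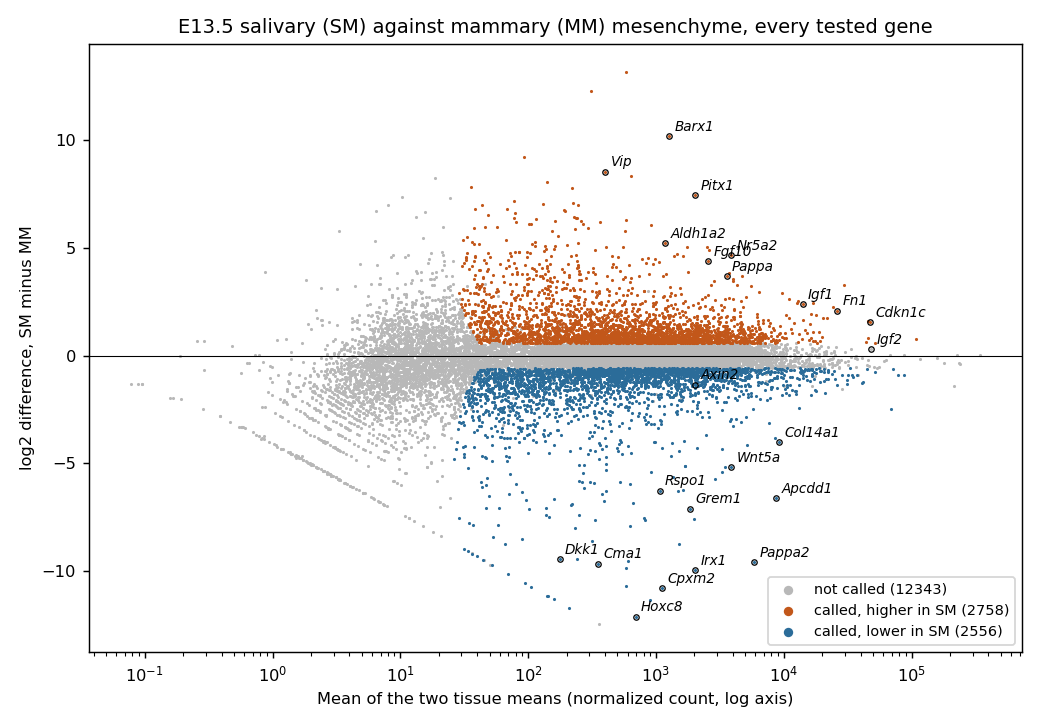
Each point is 1 of 17657 tested genes, with the mean of the SM and MM levels in normalized counts on a log axis and the fitted log2 difference, SM minus MM, on the vertical axis. Orange points are the 2758 genes called higher in SM, blue points the 2556 called lower, and circles mark some of the genes named in the text, such as Barx1 at 10.19 and Hoxc8 at -12.11. The diagonal streaks at the lower left are genes at or near 0 counts in SM, whose fitted values depend on the small count added by the fit.

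Transcription factors of body position were among the sharpest differences between the tissues. Barx1, a homeobox factor of jaw and stomach mesenchyme at chr13:48662998-48666507, measured 2319, 2708, 2441, 2876 and 2304 normalized counts in SM pools 1 to 5 and 0, 0.957, 2.93, 3.13 and 2.65 in MM pools 1 to 5. The MM pools held a few counts or none (log2 difference 10.19, SE 0.29, adjusted p = 1.79e-19). Pitx1, a homeobox factor of the lower jaw and hindlimb at chr13:55825051-55836192, measured 3584, 4018, 3869.6, 5237 and 3446 in SM and 19.2, 18.2, 22.4, 25.1 and 29.2 in MM (log2 difference 7.44, SE 0.24, adjusted p = 3.22e-18). Ventral skin also held little Barx1, at 5.46, and an intermediate level of Pitx1, at 475. Of 27 tested transcription factors of the jaw and face, 12 were higher in SM and 7 lower, with a median log2 difference of 1.10. The higher members included Pax9 at 452 against 17.9 normalized counts in SM against MM, Tbx22 at 1066 against 86.0, Alx4 at 4904 against 510.0 and Lhx8 at 168 against 18.6, and Gsc (6.09), all factors known from the formation of jaws, teeth or palate. The lower members included Sim2 (-3.69), Tbx1, Isl1, Barx2 and Pax7.

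The Dlx homeobox genes, whose nested expression patterns the jaws, split within the family. Dlx5 measured 112 against 1.65 in SM against MM and Dlx6 227 against 2.70, with log2 differences of 5.96 and 6.36. Dlx1 (3.59) and Dlx2 (4.08) were also higher in SM, whereas Dlx3 was lower (-3.35). Dlx4 and Msx2 were at 1.70 against 27.5 and 1.55 against 30.9 normalized counts and did not reach the mean of 50 that a call needed, and Msx1 was level at 36.0 against 37.7. Over the 8 tested Dlx and Msx genes, 4 were called higher in SM and 1 lower.

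Hox genes, which encode position along the trunk and limbs, went the opposite way in a block. None of 32 tested Hox genes was higher in SM and 25 were lower, with a median fitted log2 difference of -7.47. With the 11 members that had no SM count at all set to their bound, the median was -7.05. Hoxc8 at chr15:102990607-102994111 had 1 count in the 5 SM libraries together and measured 1270.0, 1333, 1526, 1409 and 1404 normalized counts in MM, a ratio of 7400 with a 95% exact counting interval of 1330 to 292000. Hoxc5 had 3 counts in SM and a mean of 1794 in MM, a ratio of 3220 with an interval of 1100 to 15600, although its annotated exons overlap those of Hoxc10 on the same strand. A further 6 Hox genes had no count in any SM library while every MM pool held them, and against a floor of 3 counts over the 5 SM libraries Hoxc6 was at least 732-fold higher in MM, Hoxa7 at least 560-fold, Hoxa10 at least 500-fold, Hoxb6 at least 372-fold, Hoxb7 at least 332-fold and Hoxd10 at least 245-fold. The 4 clusters all took part, from the 3′ gene Hoxa3 (3.15 against 52.5) to the 5′ gene Hoxd11 (1 count in the SM libraries together and a mean of 132 in MM). The weakest called member was Hoxa2, at 46.4 against 84.0 normalized counts and a log2 difference of -0.86. Hoxd8 measured 42.6 ± 8.72 in SM and 3216 ± 405 in MM (SD, n = 5), and ventral skin was at 2169.

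Transcription factors of the trunk body wall and dermis followed the Hox genes, with 17 of 24 tested members lower in SM and 3 higher. Irx1, an Iroquois homeobox gene at chr13:71957921-71963723, measured 2.69, 3.83, 1.93, 3.60 and 7.96 in SM and 4062, 3677, 3578, 4589 and 4237 in MM. No SM pool reached 10 (log2 difference -9.95, SE 0.28, adjusted p = 4.24e-19). Irx5 and Irx3 gave 1.12 against 1169 and 7.20 against 781. Tbx5, the forelimb T-box factor, gave 5.26 against 1258, and Tbx15, a T-box factor of trunk dermis, 54.3 against 2668. Twist2 and Twist1, bHLH factors of mesenchymal and dermal cells, were lower in SM by -3.67 and -1.60 on the log2 scale. The exceptions were Prrx1, a homeobox factor of limb and face mesenchyme that was higher in SM (17962 ± 1144 against 6245 ± 310.4, SD, n = 5; log2 difference 1.52, SE 0.09, adjusted p = 3.47e-13), Tbx2 (0.88) and Meox1 (1.01). Pax1 had 1 count in the SM libraries together and a mean of 106 normalized counts in MM. VM, also of the trunk, had high levels of Irx1 (5219), Tbx5 (1355) and Twist2 (6872).

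**Figure D2:**
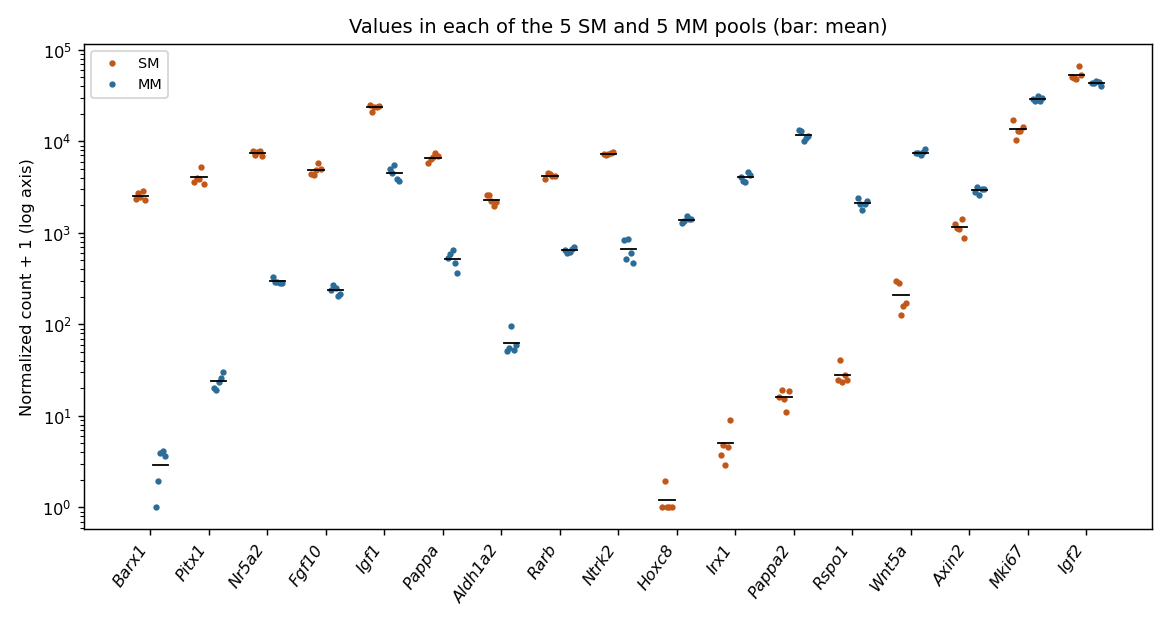
Normalized counts plus 1, on a log axis, of 17 genes in each of the 5 SM pools (orange) and 5 MM pools (blue), with a bar at the mean of 5. Igf2 is the only plotted gene without a call, at a mean of 53369 in SM and 43154 in MM. The pools of the tissues do not overlap in any of the 17 genes, Igf2 included.

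The labels were checked with genes that the study names for salivary mesenchyme, and since the study picked them, their direction is no independent evidence. Nr5a2, which encodes the nuclear receptor LRH-1, measured 7855, 7056, 7738, 7873 and 6824 in SM and 326, 292, 288, 284 and 279 in MM (log2 difference 4.67, SE 0.13, adjusted p = 6.62e-20). Negr1, a cell adhesion protein, was at 2474 ± 219.9 against 357 ± 83.2, and Klf14, a Kruppel-like factor, at 1483 ± 152 against 456 ± 44.7 (SD, n = 5). All 3 were called and none overlapped. General mesenchyme markers were high in both tissues: Pdgfra measured 25455 against 24911 and Vim 24299 against 28425, both without a call, and of 10 such markers 2 were higher in SM and 4 lower.

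Several genes of steroid response were lower in SM. Esr1, the oestrogen receptor alpha, was at 92.6 ± 14.0 in SM and 772 ± 274 in MM (SD, n = 5; log2 difference -3.05, SE 0.25, adjusted p = 2.86e-10). Srd5a2, the reductase that turns testosterone into dihydrotestosterone, had 3 counts in SM altogether and 1157 ± 109 normalized counts in MM, a ratio of 2060 with an exact counting interval of 706 to 10000.0. Pth1r, the receptor through which the epithelial hormone PTHrP specifies mammary mesenchyme, was expressed in both, at 881 against 3131 (-1.83). The mineralocorticoid receptor Nr3c2 was higher in SM (117 against 41.3), and Esr2, Pgr, Nr3c1, Srd5a1 and Srd5a3 were not called. Of 13 genes listed for mammary mesenchyme identity, 7 were lower in SM and 4 higher, the latter being Nrg3 (4.57), Gli3 (1.80), Tnc (1.77) and Tbx2 (0.88). Nrg3, a neuregulin known for promoting mammary bud formation, was thus low in MM at this stage, at 7.85 against 189 in SM.

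Insulin-like growth factors (IGF) drive the growth of embryonic tissues, and binding proteins hold them until pappalysin proteases cut these carriers, a step that stanniocalcins block. Igf1 measured 25076, 20888, 23773, 24005 and 24111 in SM and 4964, 4487, 5452, 3891 and 3704 in MM, so that the lowest SM pool stood far above the highest MM pool (log2 difference 2.39, SE 0.24, adjusted p = 7.95e-09). The other tissues lay between or below, with VM at 1913, E16.5 MM at 10033 and FP at 9822. Igf2, at 49880.4, 48653, 48455, 66457 and 53399.5 in SM and 43126, 43054, 45111, 44197 and 40285 in MM, was abundant in both. Its log2 difference of 0.31 (SE 0.10, adjusted p = 0.0127) stayed under the size a call needed although its pools did not overlap, and its exons are shared with an overlapping annotated gene. Among receptors, Igf1r (4767 against 2379.7), Insr (1.09) and the adaptor Irs1 (1.92) were higher in SM, and the clearance receptor Igf2r was not called.

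The pappalysins went in opposite directions. Pappa, which encodes the protease that cuts IGFBP4 and IGFBP5, measured 5744, 6445, 6695, 7459 and 6847 in SM and 529, 580.0, 652, 472 and 365 in MM (log2 difference 3.68, SE 0.20, adjusted p = 1.35e-13). Pappa2, the related protease acting on IGFBP3 and IGFBP5, measured 15.3, 18.2, 14.4, 9.90 and 17.9 in SM and 13441, 13111, 10017, 10979 and 11374 in MM (log2 difference -9.60, SE 0.37, adjusted p = 1e-15). No pool of either tissue came near the other for these genes, and VM held 288 of Pappa and 1577 of Pappa2. Their inhibitors Stc1 (465 against 759) and Stc2 (42.7 against 156) were lower in SM. Igfbp5 was lower in SM (5696 against 19377; -1.77), Igfbp7 higher (941 against 233; 2.02), and Igfbp2, Igfbp3, Igfbp4 and Igfbp6 were not called. Over the 17 tested IGF genes, 6 were higher in SM and 4 lower, with a median of 0.11.

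Fibroblast growth factors (FGF) from the mesenchyme, above all Fgf10, signal to epithelial Fgfr2 and are needed for both glands. Fgf10 at chr13:118669791-118792115 measured 4427, 4283, 4825, 5799.9 and 5021 in SM and 234, 271, 249, 205 and 214 in MM. No MM pool came near any SM pool (log2 difference 4.38, SE 0.14, adjusted p = 2.25e-18), and VM was lower still at 89.3. Fgf7, a ligand of the same receptor form, was not called (705 against 1006; -0.51). Fgf1 (141 against 28.8), Fgf2 (882 against 577) and the intracellular family member Fgf12 (309.9 against 59.5) were higher in SM, and Fgf14, another intracellular form, was lower. The receptors Fgfr1 (-0.59) and Fgfr3 (-0.92) were lower in SM, whereas Fgfr2 (0.51) was not called. Feedback inhibitors diverged: Spry4 (1684 against 577), Spry3 (215 against 40.6), Spred2 and Spred3 were higher, while Dusp6 (2186 against 4262), Il17rd (953 against 1618) and Spry2 were lower. Of 32 tested FGF genes, 9 were higher and 6 lower, with a median of 0.09.

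Wnt ligands signal through Frizzled and Lrp receptors, R-spondins amplify the signal, and secreted antagonists and feedback targets restrain it. Rspo1 measured 23.3, 39.3, 22.2, 27.0 and 23.9 in SM and 2425, 2053, 1793, 2066 and 2205 in MM (log2 difference -6.27, SE 0.20, adjusted p = 3.07e-18). Wnt5a, the main non-canonical ligand, measured 299.7, 285, 124, 156 and 169 in SM and 7381, 7359.9, 7080.4, 7644 and 8265 in MM (log2 difference -5.19, SE 0.21, adjusted p = 7.05e-16). The pools did not overlap in either gene, and MM exceeded VM, at 2534 for Wnt5a and 1146 for Rspo1. Wnt11 (304 against 2003), Wnt4 (696 against 1809) and Wnt9a (139 against 255) were also lower in SM, and Wnt2b was the only ligand called higher (764 against 431; 0.83). Of 16 tested ligands and R-spondins, 1 was higher and 5 were lower, while Wnt2, Rspo2 and Rspo3 had log2 differences of 0.23, 0.60 and -0.37 without a call.

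Receptors were split. Fzd7 measured 6668 ± 486 in SM and 1498 ± 65.3 in MM (SD, n = 5; log2 difference 2.15, SE 0.14, adjusted p = 1.8e-12), and Fzd1 (1.85), Fzd8 (1.15), the co-receptors Lrp5 (1.12) and Lrp6 (0.90), the R-spondin receptors Lgr4 and Lgr5, and Ror1, a receptor for Wnt5a (4998 against 833), were higher in SM. Fzd10 (186 against 1904), Fzd6, Lgr6 (43.6 against 213) and the co-receptors Ptk7 (4636 against 12997) and Ryk were lower. In all, 8 of 21 were higher and 5 lower.

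Antagonists differed by gene family. Apcdd1, a membrane inhibitor of Wnt reception, measured 136, 231, 158, 175 and 182 in SM and 15445, 16974, 15940.2, 18010.5 and 19456 in MM (log2 difference -6.61, SE 0.18, adjusted p = 6.67e-20). Dkk1, which blocks Lrp5 and Lrp6, had 2 counts in the SM libraries together and measured 265, 291, 307, 355 and 544 in MM, a ratio of 952 with an exact counting interval of 263 to 7870.0. Notum, the enzyme that inactivates Wnt proteins, was at 3.40 against 428, Wif1, which binds them, at 8.45 against 750.1, and Sostdc1, which binds Wnt co-receptors and BMPs, at 56.7 against 969. Each of these was lower in every SM pool than in any MM pool. VM held Apcdd1 at 20998, above MM, but Dkk1 at 100 and Notum at 195, below it. Of the 5 secreted Frizzled-related proteins 4 were higher in SM, with Sfrp1 at 9235 ± 583 against 3345 ± 382, Sfrp2 at 6603 ± 567 against 1500.3 ± 211 (SD, n = 5), next to Sfrp4 and Frzb, and Sfrp5 was lower. The membrane inhibitors Shisa2 and Trabd2b were also higher. Of 20 tested antagonists, 6 were higher and 10 lower in SM. The 12 negative Wnt regulators that the study lists were all lower in SM, among them Grem1, Cthrc1 (-1.08), Tsku (-0.79), Dkk2 (-1.18) and Slc9a3r1 (-1.14), with a median of -3.40. That list was chosen on these samples, so its direction is not independent evidence.

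Feedback genes and targets of canonical Wnt signalling were mostly lower in SM, in 11 of 16 tested members against 1 higher, with a median of -2.24. Of the lower members, Dkk1, Notum and Apcdd1 were also counted among the antagonists above, and Lef1 and Tcf7 among the body wall and dermis factors. Axin2, the most used reporter of the pathway, measured 1245, 1117, 1088, 1413 and 881 in SM and 2784, 3173, 2618, 3009 and 3027 in MM (log2 difference -1.35, SE 0.11, adjusted p = 5.32e-11). Its pools did not overlap, yet the difference was the smallest of the called lower members, next to Nkd2 (-1.77), Ccnd1 (-2.08), Tcf7 (-2.40), Lef1 (142 against 1139), Nkd1 (-3.95), Tnfrsf19 (-4.33) and Sp5 (-6.64). The single higher member was Lgr5 (1307 against 705), whose pools overlapped between tissues. Rnf43, Znrf3, Myc and Cd44 were not called. Axin2 in VM, at 5286, was above both glands.

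To show where letters bound by TCF/LEF, the transcription factors of this pathway, occur near these genes, the 250 bases before each RefSeq start (GRCm38.p6) were searched on both strands for CTTTGAA and CTTTGAT. Windows were found for 10 of the 16 members. The letters occurred in 3 of their 16 windows, or 18.8%, and in 2457 of 32851 windows of all genes, or 7.48%. The 30 bases around each match, 5′ to 3′ on the strand of the gene with the match in capitals, lie 117, 104 and 202 bases before the start of Dkk1, Sp5 and Tnfrsf19, at chr19:30549595-30549624 on the minus strand, chr2:70474808-70474837 on the plus strand and chr14:61038171-61038200 on the minus strand.
Dkk1: tcctcccaaagCTTTGAAatcccatcccgg
Sp5: ggcaaggccccCTTTGATcaggaaaatcca
Tnfrsf19: ctgaatgggggATCAAAGtgacaaactaga
All 3 genes were lower in SM, with Sp5 at 3.10 against 314 and Tnfrsf19, a receptor of the TNF family, at 311 against 6250.4 normalized counts. A match of letters is a description and was not tested as a binding site. The list was drawn up from feedback genes and targets of this pathway, so the higher share in its windows is no independent evidence.

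Bone morphogenetic proteins (BMP) are held in check by secreted antagonists and induce the Id genes. Bmp7 measured 1982, 1979.5, 2139.9, 2416 and 2017 in SM and 271, 352, 402, 380.0 and 344 in MM (log2 difference 2.59, SE 0.14, adjusted p = 4.66e-14), and Bmp6 (193 against 35.7), Gdf11 (1904 against 794) and Gdf5 (60.6 against 16.6) were also higher in SM. Bmp2 (234 against 459), Bmp4 (592 against 1092), Bmp5 (133 against 209) and Gdf10 (365 against 1066) were lower. Of 9 tested antagonists 2 were higher in SM and 4 lower. Grem1, gremlin, measured 41.3, 12.5, 22.2, 12.6 and 45.7 in SM and 3198, 4053, 2748, 3749 and 4677 in MM (log2 difference -7.10, SE 0.35, adjusted p = 6.84e-14), and in the opposite direction Chrdl1, chordin-like, was at 2016 ± 365 in SM and 99.7 ± 20.7 in MM (SD, n = 5; log2 difference 4.33, SE 0.20, adjusted p = 3.12e-15) and Chrd at 530.2 against 253. VM held Grem1 at 3806 and Chrdl1 at 88.2, both near the level of MM. All 4 Id genes, which encode inhibitors of bHLH factors, were lower in SM, with log2 differences of -1.05 for Id1, -1.36 for Id2, -1.29 for Id3 and -2.66 for Id4. Smad6 and Smad7, feedback inhibitors of the same signal, were not called (-0.10 and 0.47). The receptors Bmpr1b (545 against 99.1) and Bmpr2 (8228 against 4459.6) and the procollagen protease Bmp1 (6965 against 3874) were higher. Altogether 9 of 32 BMP genes were higher and 12 lower.

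In the TGF-beta and activin pathway 5 of 22 tested genes were higher in SM and 4 lower. Inhba, the activin A subunit, was at 238 ± 25.9 in SM and 1941 ± 252 in MM (SD, n = 5; log2 difference -3.03, SE 0.23, adjusted p = 8.32e-11). VM held more Inhba than MM, at 3515. Ltbp1, which stores latent TGF-beta in the matrix, was at 1669 ± 379 and 6926 ± 666, while its relative Ltbp3 was higher in SM (1218 against 606), with exons that overlap another gene on the other strand. Tgfb2 was higher (1505 against 775; 0.96), and the receptor Tgfbr2 (3986 against 6353) and the antagonist Fstl3 were lower.

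**Figure D3:**
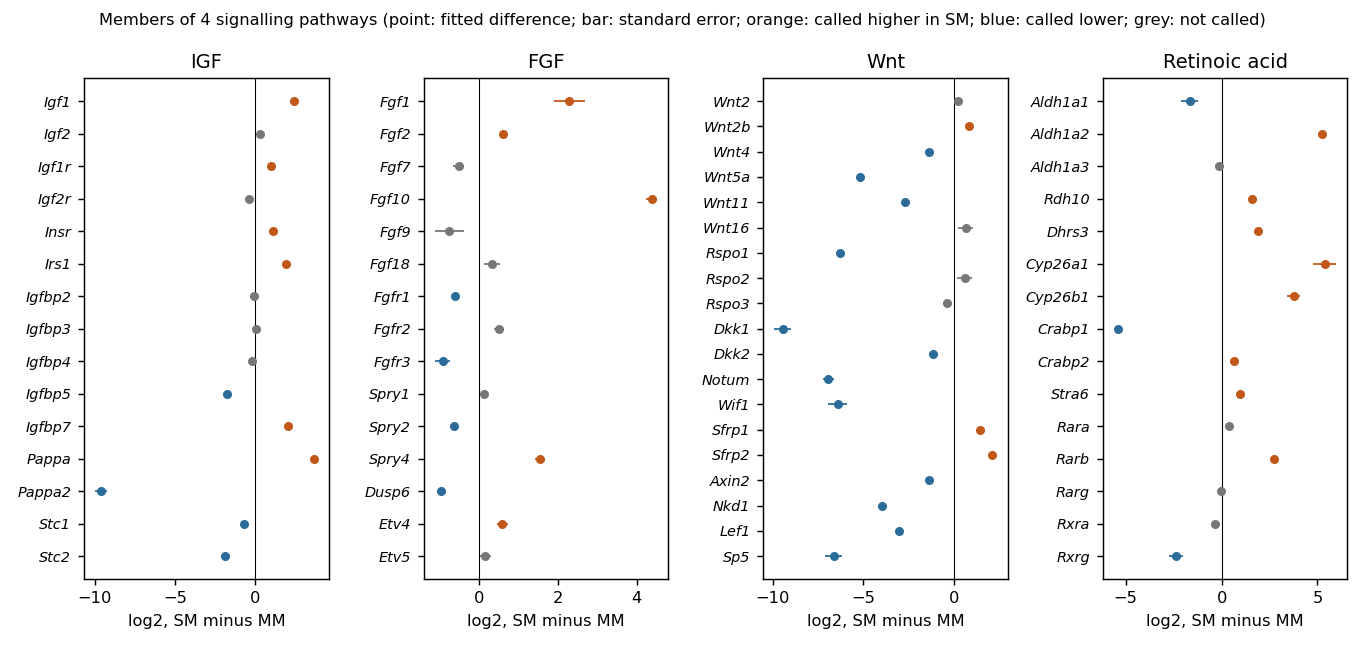
Fitted log2 differences, SM minus MM, with standard errors as bars, for members of the IGF, FGF, Wnt and retinoic acid pathways, orange where called higher in SM, blue where called lower and grey where not called. The horizontal scale differs between panels. Pappa at 3.68 and Pappa2 at -9.60 lie on opposite sides of 0, and Fgf10 at 4.38 stands apart from the other FGF genes.

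Retinoic acid is made from vitamin A by Rdh10 and then an Aldh1a enzyme, is broken down by Cyp26 enzymes and acts on nuclear receptors that induce Rarb and Cyp26a1 among their best known targets. Aldh1a2 at chr9:71215789-71296243 measured 2564, 2593, 2226, 1970.2 and 2179.7 in SM and 49.8, 54.6, 93.7, 51.7 and 58.3 in MM (log2 difference 5.22, SE 0.20, adjusted p = 1.16e-16). Rdh10 was at 4623 ± 208 and 1512 ± 46.1 (SD, n = 5; log2 difference 1.61). Rarb measured 3844, 4459, 4395, 4211 and 4138 in SM and 649, 594, 614, 661 and 696 in MM (log2 difference 2.71, SE 0.13, adjusted p = 2.54e-15), and Cyp26a1 47.6, 59.4, 53.9, 90.9 and 48.7 and 2.26, 0.957, 1.95, 0.784 and 0.884 (log2 difference 5.38, SE 0.61, adjusted p = 2.96e-08). The groups were apart in each of these, and VM was at 14.1 for Aldh1a2 and 280.1 for Rarb. The exons of Rarb overlap those of Top2b on the other strand, and whether counting used strand is not stated. The breakdown enzyme Cyp26b1 (392 against 28.9), the reductase Dhrs3 (1183 against 319.7) and the retinol transporter Stra6 were higher too. Crabp1, which binds retinoic acid in the cytoplasm, was the main exception at 172, 153, 163, 126 and 136 in SM and 5737, 6239, 5545, 7366 and 6987 in MM (log2 difference -5.41, SE 0.21, adjusted p = 4.13e-16), whereas Crabp2 was slightly higher in SM (0.67). VM held Crabp1 at 8091, above MM. Aldh1a1 (-1.66) and Rxrg (-2.37) were lower in SM. In total 9 of 17 tested members were higher and 3 lower, with a median of 0.67.

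The same 250-base windows were searched on both strands for the letters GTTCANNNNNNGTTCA, which describe a direct repeat of the short site bound by retinoic acid receptors. They occurred in 22 of 32851 windows of all genes, or 0.067%, and in 2 of the 26 windows of the 13 pathway members that had one. Those were the windows of Rarb and Cyp26a1, both higher in SM. Since both genes are among the best known targets named above, their matches are no independent evidence. The 30 bases around the matches, which begin 52 bases before the start of Rarb (chr14:16575506-16575535, minus strand) and 32 bases before that of Cyp26a1 (chr19:37697769-37697798, plus strand), are given 5′ to 3′ on the strand of the gene with the match in capitals, and in Cyp26a1 the repeat is on the opposite strand.
Rarb: gggaaggGTTCACCGAAAGTTCActcgcat
Cyp26a1: ttaaagaTGAACTTTGGGTGAACtaatttg
Receptor binding was not measured at either site.

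Other paracrine systems differed by single members. In the Hedgehog pathway Gli1, its usual transcriptional readout, was lower in SM (158 against 519; -1.71), but its exons overlap Arhgap9 on the other strand, and the targets Ptch1 (0.14) and Hhip (-0.55) were not called. Gli3, whose protein acts mainly as a repressor of the pathway, measured 5462 ± 770.2 in SM and 1573 ± 91.4 in MM (SD, n = 5), and the inhibitor Sufu was higher (0.92). Hgf was higher in SM (739 against 278) and its receptor Met lower (237 against 943), with SM pool 1 well above the other SM pools for Met. Vegfd, a lymphatic growth factor, was at 19.7 ± 16.6 against 796 ± 76.2 (SD, n = 5; -5.32), Vegfc at 279 against 691 and Vegfa level at 1559.7 against 1527. Pdgfa, Pdgfb, Pdgfc and Kitl were lower and Pdgfd higher (1512 against 397). Of 14 members of these systems, 2 were higher and 8 lower. In the ectodysplasin pathway, which promotes the growth of skin appendages and glands, the ligand Eda was higher in SM, at 807 ± 72.8 against 359 ± 26.8 (SD, n = 5). Edar, which the study names as its epithelial receptor, was not called, and the adaptor Edaradd was lower (103 against 405). Eda2r, another receptor of the family, was higher in SM, at 1059 ± 185 against 404 ± 33.2 (SD, n = 5), and its pairing with Eda was not tested. Nrg1 was higher in SM as well (699 against 435), and Hbegf, an EGF family ligand, was lower (219 against 435).

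Of 16 tested neurotrophic factors and receptors, 4 were higher in SM and 7 lower. All 4 higher genes were receptors, among them Ntrk2, Ntrk3 and Ret, and 3 of the 9 receptors were lower. Ntrk2 measured 7204, 6999, 7356, 7446 and 7600.2 in SM and 829, 516, 862, 606 and 471 in MM (log2 difference 3.48, SE 0.14, adjusted p = 1.96e-16), Ntrk3 2794 against 314 and Ret 450.0 against 157. The ligands Bdnf (29.0 against 316), Ntf3 (110.3 against 236) and Gdnf (33.8 against 107) were lower in SM, as were the co-receptors Gfra1 (-1.85), Gfra2 (-0.74) and Gfra3 (40.3 against 681; -4.07).

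Several of these receptors are also used by neurons, and the submandibular gland holds a parasympathetic ganglion. Vip, a transmitter of parasympathetic neurons, measured 693, 844, 703, 648 and 1112 in SM and 1.13, 1.91, 0, 4.70 and 1.77 in MM (log2 difference 8.53, SE 0.57, adjusted p = 5.41e-12). Each SM pool thus carried ganglion transcripts that were nearly missing from MM. Of 25 tested markers of autonomic ganglion neurons, 17 were higher in SM and 3 lower, the latter Gata2, Isl1 and Npy, with a median of 3.71. Their summed level was 515 to 614 CPM (counts scaled to a common library size) in SM and 74.3 to 89.6 in MM. The part of these cells in the Ntrk and Ret differences was not tested. In pools of tissue, fewer cells of a type and less RNA per cell cannot be told apart, for these and all other genes. Phox2a (279 against 0.922), Tlx2 (186 in SM, 1 count in the MM libraries together), Stmn3 (438 against 1.88), Tubb3 (3101 against 127), Elavl3 (510.4 against 6.66) and Chrna3 (259.6 against 1.79) had the same direction. Among 10 glial markers, 2 were higher in SM, Mbp (418 against 78.1) and Fabp7, and 3 lower.

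Axon guidance genes, which also steer mesenchymal and endothelial cells, included some of the most abundant differences. The neuropilins, co-receptors for class 3 semaphorins and VEGF, had opposite directions. Nrp2 measured 21928 ± 2179 in SM and 3800.1 ± 420.0 in MM (SD, n = 5; log2 difference 2.53, SE 0.12, adjusted p = 1.94e-15), whereas Nrp1 was at 3202 ± 255 and 12459 ± 1603. Robo2, a Slit receptor, was at 18831 ± 1523 and 3078 ± 203 (log2 difference 2.61, SE 0.10, adjusted p = 1.18e-16), and Robo1 (1.32), Efnb2 (7942 against 1683), Sema3d (1916 against 423), Sema4g (948 against 179) and Plxnc1 (3249.8 against 630.0) were higher in SM. Sema5a (4824 against 17059), Epha4 (2601 against 9575), Ntn1 (380.2 against 1076), Ntn4 (28.3 against 166) and Efna3 (59.4 against 248) were lower. Over 64 tested members the directions balanced at 14 higher and 13 lower.

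Of 13 tested chemokines 5 were higher in SM and 2 lower, and both tested receptors were lower. Cxcl12, the ligand of Cxcr4, was at 6959.7 ± 553 in SM and 1127 ± 153 in MM (SD, n = 5; 2.63), Cxcl13 at 977 against 65.3 and Ccl11 at 827 against 72.9. Cxcl14, in contrast, was at 8.80 ± 11.7 and 1609 ± 164 (log2 difference -7.51, SE 0.44, adjusted p = 1.89e-12), and Ccl2 at 14.1 against 108. The receptors Cxcr4 (172 against 356) and Ackr3 (276 against 1015) were lower in SM. In all, 5 of 15 were higher and 4 lower.

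Markers of immune cells were uniformly lower in SM. All 13 macrophage and leukocyte markers were called lower, with a summed level of 88.1 to 126 CPM in SM and 400.2 to 471 in MM. Mrc1, a mannose receptor of tissue macrophages, measured 571, 484, 517, 476 and 744 in SM and 4092, 4074, 4085, 3695 and 4340.1 in MM (log2 difference -2.86, SE 0.11, adjusted p = 5.34e-17). Mast cell proteases were nearly confined to MM among these 10 pools. Cpa3 measured 11.7, 26.8, 25, 21.6 and 19.9 in SM and 4869.7, 3153, 3444, 4571 and 3880.4 in MM, Cma1 was at 0.768 against 709, and the 6 mast cell markers summed to 0.440 to 1.26 CPM in SM and 151 to 234 in MM. Endothelial markers summed to 519 to 603 CPM in SM and 796 to 988 in MM, with 8 of 13 lower and none higher. Pecam1 was at 2459.7 against 4457 and Kdr, which was not called, at 3519 against 4089, while the lymphatic and macrophage gene Lyve1 was at 24.6 against 795. Red cell markers summed to 1348 to 2106 CPM in SM and 2940.4 to 3711 in MM, with 6 of 10 lower and the erythroid factor Klf1 higher (67.6 against 19.8).

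**Figure D4:**
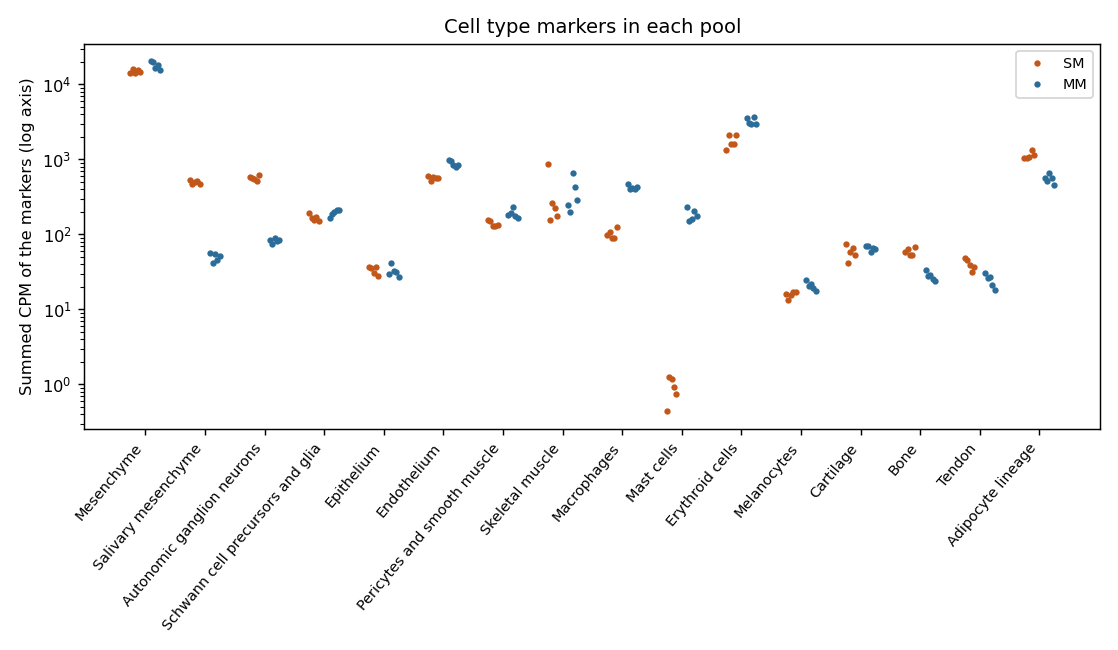
Summed level, in CPM on a log axis, of the markers of 16 cell types in each SM pool (orange) and MM pool (blue). Ganglion neuron markers lie at 515 to 614 in SM and 74.3 to 89.6 in MM, mast cell markers at 0.440 to 1.26 and 151 to 234, and 1 SM pool stands out for skeletal muscle at 878.

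Epithelial markers were low in both tissues. The epithelial markers, of which 17 were tested, summed to 28.1 to 36.9 CPM in SM and 26.7 to 41.6 in MM. These sums join opposite differences, since Epcam was higher in SM while the median log2 difference of the tested markers was -0.89. The list includes Sox10 (-0.80), which was called lower and was also counted among the glial markers. Cdh1 was at 7.79 against 15.9 normalized counts, Krt5 at 0.558 against 15.6, Krt14 at 2.99 against 40.6 and Krt8 at 15.1 against 28.3. None of these genes reached the mean that a call needed in either tissue, so they could not be called. Their log2 differences were -1.02, -4.48, -3.69 and -0.89 in this order. Krt5 was higher in MM by a ratio of 25.8, with an exact counting interval of 8.5 to 128. Epcam was higher in SM, at 388, 576, 436, 497 and 387 against 38.5, 77.5, 65.4, 49.4 and 37.1 (log2 difference 3.09, SE 0.46, adjusted p = 3.92e-06), as was the basal cell factor Trp63 (82.0 against 40.0), while the plakophilin Pkp1 (1.65 against 51.0) was lower. Skeletal muscle markers summed to 878 CPM in SM pool 1, to 157 to 262 in the other 4 SM pools and to 196 to 658 in MM, and 3 of 18 were lower in SM, among them Myf5 (20.4 against 124), a count that was 5 without SM pool 1 and 1 without any of SM pools 2, 3 and 5 and MM pools 3 and 4. Smooth muscle genes were mixed, with Tagln (101 against 617) and Acta2 (596 against 2448) lower and Rgs5 (221 against 48.0) higher, and the exons of Tagln overlap Pcsk7. Among melanocyte markers 1 of 5 was called, Dct (39.7 against 61.4, adjusted p = 0.0486), and it lost its call when any single pool other than MM pool 5 was left out. None of 4 Y-linked genes was called. They summed to 142 to 659 CPM in SM and 312 to 655 in MM, so every pool held Y-linked transcripts, at levels that varied between pools.

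The extracellular matrix differed in kind rather than in 1 direction. Of 43 collagen genes 8 were higher in SM and 15 lower. Col14a1, a fibril-associated collagen of dermis, measured 711, 1236, 789.7, 1067 and 1570.2 in SM and 15565, 18948, 17179, 18364 and 16187 in MM (log2 difference -4.00, SE 0.17, adjusted p = 5.77e-16). Col7a1, the anchoring fibril collagen under the epidermis, was at 200.3 against 3955, and the fibrillar genes Col1a1 (12504 against 28703) and Col1a2 (54748 against 102075) and the beaded Col6a1 and Col6a2 were lower in SM. Col3a1 was not called (-0.38). The transmembrane collagen Col13a1 (915 against 53.0) and Col28a1 (134 against 16.4) were higher.

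Fn1, fibronectin, which takes part in salivary cleft formation, measured 41314, 29819, 41215, 57316 and 43752 in SM and 11212, 11328, 11420.0, 9135 and 6914 in MM (log2 difference 2.09, SE 0.23, adjusted p = 3.22e-08). Tnc, tenascin C, was at 9514 ± 2123 against 2786 ± 547 (SD, n = 5), and its relatives Tnr (288 against 11.7) and Tnxb (171 against 25.1) shared its direction. Postn, periostin, was lower (19764 against 37099; -0.91), as were Sparc (9693 against 32463), Thbs2 (1007 against 3957) and Ccn3 (29.8 against 632). Of 13 elastic fibre genes 6 were lower and 2 higher, with Eln at 621 against 3829, Mfap4 at 665 against 3552 and the crosslinking enzymes Lox at 2263 against 7052 and Loxl4 at 17.1 against 300.2, although Fbn1, fibrillin 1, was higher (25604 against 11953). In the matricellular and elastic fibre list 8 of 37 were higher and 16 lower. Of 25 laminins, nidogens and heparan sulfate proteoglycans, 9 were higher and 8 lower, of which 4 stayed called with scaling by total counts alone and 5 without MM pool 2. Lamb1, a laminin chain of basement membranes, was at 33791 ± 3062 against 10016 ± 1014 and its linker Nid2 at 16579.9 ± 2228 against 4427 ± 836 (SD, n = 5), with Lama1 and Lama2 higher as well and Lama4 lower (-0.61). Among heparan sulfate carriers, the glypicans Gpc6 (5347 against 1246) and Gpc3 (20217 against 8961) were higher and the syndecans Sdc2 (646 against 2248) and Sdc4 (388 against 974) lower, and Sulf1, which removes sulfate groups from these chains, was at 1128 ± 168 in SM and 15966 ± 1259 in MM (log2 difference -3.82, SE 0.10, adjusted p = 5.13e-20).

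Of 20 small leucine-rich and hyaluronan proteoglycans and hyaluronan synthases, 6 were higher in SM and 5 lower, and Dcn, Vcan, Hapln1 and the synthases Has1, Has2 and Has3 were not called. Acan, aggrecan, was at 526 ± 172 in SM and 7.25 ± 4.25 in MM (SD, n = 5; log2 difference 6.13, SE 0.38, adjusted p = 7.27e-13), while the cartilage collagen Col2a1 was at 66.9 against 40.4 without a call. Epyc (199 against 7.11), Ncan (271 against 24.4) and Kera (1959.7 against 468) were higher in SM, and Fmod (1.30 against 203), Ogn (989.9 against 8309), Lum (8411 against 18085) and Bgn (1402 against 4221) lower. Phex, an endopeptidase known from bone, was higher (1428 against 178), whereas the bone factors Runx2 (82.3 against 363) and Sp7 (12.8 against 55.2) were lower. Of 45 metalloproteases and inhibitors, 16 were higher in SM and 6 lower, with a median of 0.39. Adamts1, which cuts versican, was at 17124 ± 1254 against 2302 ± 263 (log2 difference 2.90, SE 0.12, adjusted p = 4.57e-16), Adam23, an adhesion protein of the family, at 7393 ± 631 against 630.0 ± 45.4 (log2 difference 3.55, SE 0.10, adjusted p = 6.67e-20), and Adam10, the sheddase of Notch and EGF ligands, at 4478 against 2122. Adamts15 (8852 against 1353), Adamts5 (2173 against 428) and Mmp16 (4754 against 1434) were higher too, and Mmp2 (3937 against 9380.3), Adam33 (227 against 995) and Adamts8 (50.7 against 284) lower. Cadherins had both directions, with Cdh2 (2249 against 580.0) and Cdh4 (681 against 132) higher in SM, Cdh6 (885 against 6832) and Cdh8 (17.5 against 204) lower and the mesenchymal Cdh11 just past the threshold (0.59).

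**Figure D5:**
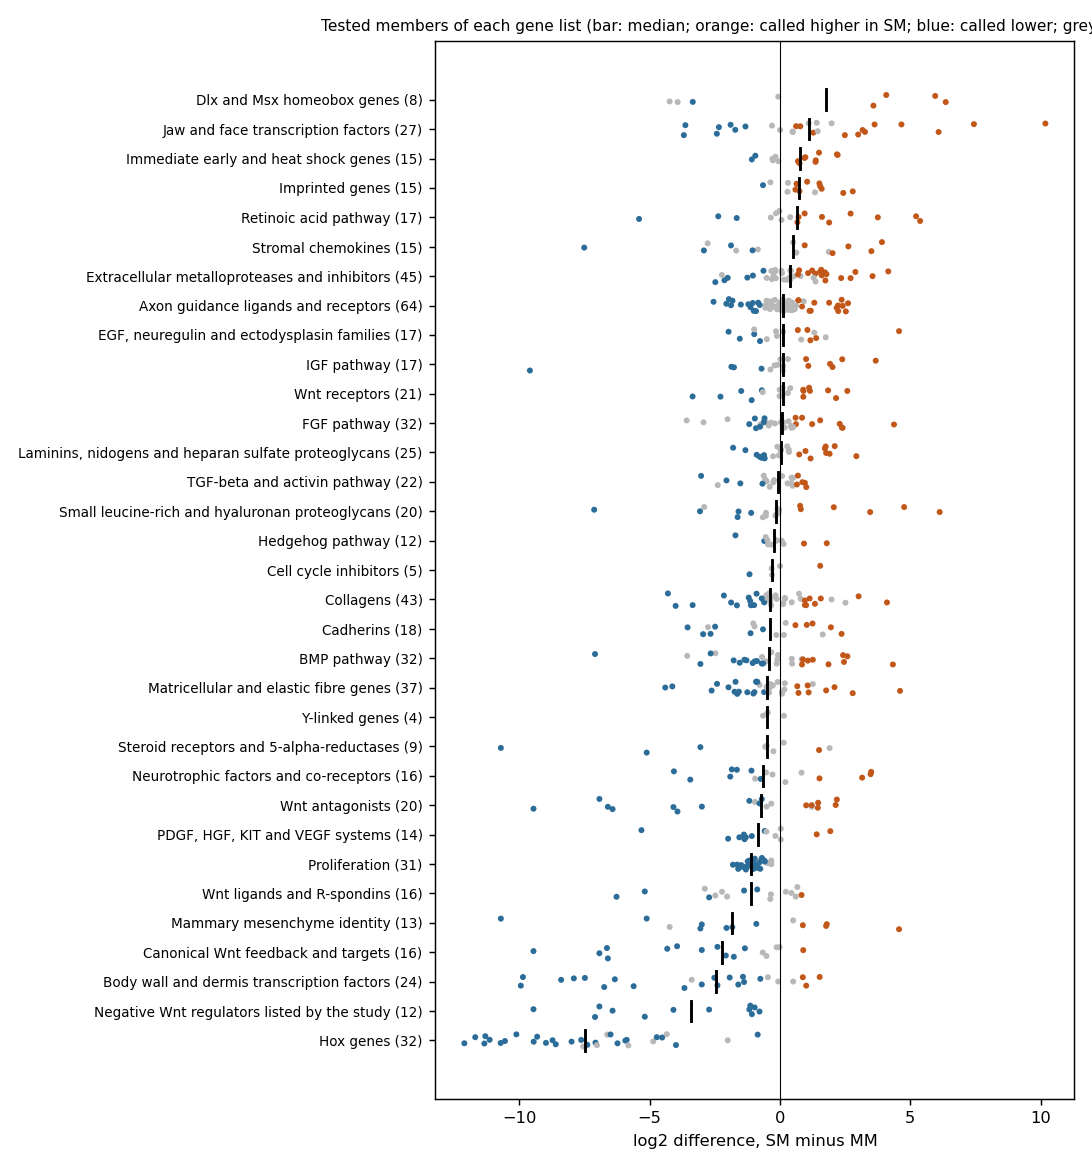
Fitted log2 differences, SM minus MM, of the tested members of each gene list other than the cell type markers, with the number of members in brackets, ordered by the list's median (black bar). Orange points were called higher in SM, blue called lower and grey not called. Of the lists drawn, Hox genes lie farthest to the left at a median of -7.47 and Dlx and Msx genes farthest to the right at 1.76.

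Genes of cell division were lower in SM almost throughout. Of 31 tested proliferation genes 28 were lower and 0 higher, with a median of -1.10, and the 3 without a call, Mcm2, Mcm4 and Ccne1, also had negative differences. Mki67, the Ki-67 antigen of cycling cells, measured 17242, 10313, 12881, 12854 and 14331 in SM and 28650.3, 27612, 31186, 27684 and 29656 in MM (log2 difference -1.10, SE 0.10, adjusted p = 4.92e-10). The median difference was -1.23 over 18 mitosis genes, such as Bub1 (1163 against 3629.8), Birc5 (617 against 2155) and Ccnb1 (1893 against 5320.3), and -0.76 over 13 replication genes, such as Pcna (3778 against 7378) and Mcm6 (5659.6 against 8545). The cells of the 2 tissues that divided were not identified, and red cell precursors and leukocytes, whose markers were also lower in SM, divide at this stage, so the part of other cells in the difference was not tested.

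Repressor complexes of the cell cycle bind the letters TTTGAA and TTCGAA near start sites. In the 250-base windows these letters, on either strand, occurred in 9 of 27 windows of proliferation genes, or 33.3%, and in 5633 of 32851 windows of all genes, or 17.1%. TTTGAA is contained in the TCF/LEF letters CTTTGAA used above, so these searches overlap. The window of Cdk1, the mitotic kinase (1948 against 4263; -1.13), held the letters at 71 and 15 bases before the start, at chr10:69352966-69352995 and chr10:69352913-69352942 on the minus strand, and that of Cdc20, the activator of mitotic exit (827 against 2228; -1.43), at 18 bases, at chr4:118437344-118437373 on the minus strand. They are printed 5′ to 3′ on the strand of the gene with the letters in capitals, as examples from this list.
Cdk1: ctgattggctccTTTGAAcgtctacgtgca
Cdk1: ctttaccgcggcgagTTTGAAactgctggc
Cdc20: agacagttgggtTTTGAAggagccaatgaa
No use of these sites was measured, and the difference between the shares was not tested.

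Cdkn1c, an imprinted inhibitor of the cell cycle, measured 61314, 94975, 64017, 66329 and 68184 in SM and 28739.7, 22301, 24843, 23787 and 22030.0 in MM (log2 difference 1.54, SE 0.12, adjusted p = 3.56e-11). SM pool 2 was the highest, and the lowest SM pool was still above every MM pool. The related inhibitors Cdkn1a and Cdkn1b were not called (-0.30 and 0.00), and Cdkn2c was lower (293 against 659). Many imprinted genes had the direction of Cdkn1c: 10 of 15 tested were higher in SM and 1, Sgce (-0.65), was lower. Igf2 (0.31), Igf2r (-0.37), Impact and Phlda2 were not called, and joint regulation of these genes was not tested. Peg10, a retrotransposon-derived gene, measured 29139, 23374, 27904, 33492 and 29154 in SM and 5802, 5739.6, 5923, 4668 and 4416 in MM (log2 difference 2.43, SE 0.15, adjusted p = 8.56e-13). Plagl1, a zinc finger factor (69049 against 22774), Magel2 (967 against 140.0), Dlk1 (15664 against 7606), Peg3 (136368 against 81116), Mest (61819 against 40990.4) and Grb10 (53919 against 34702) shared this direction.

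Immediate early genes, which respond within minutes to stress and dissociation, were partly higher in SM. Fos measured 2468, 2859.6, 1646, 589 and 681 in SM and 356, 353, 353, 349 and 399.5 in MM (log2 difference 2.19, SE 0.41, adjusted p = 8.02e-05), Egr1 1021 against 362 and Jun 4835 against 1877. The SM pools were far more variable than the MM pools for Fos. Of 15 immediate early and heat shock genes, 9 were higher in SM and 2 lower, Atf3 (61.4 against 119) and Hspb1 (71.9 against 152). The part of the dissection in these differences was not tested.

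Among genes outside the lists, Nrk, an X-linked kinase, was among the most abundant of the large differences at 53329.9 ± 5278 in SM and 5505 ± 902 in MM (SD, n = 5; log2 difference 3.28, SE 0.18, adjusted p = 5.4e-14), together with Itm2a, a membrane protein of mesenchyme (40007 ± 4255 against 8449.8 ± 401). Cpxm2, a secreted carboxypeptidase-like protein, was at 1.15 ± 1.27 against 2236 ± 262 (log2 difference -10.80, SE 0.30, adjusted p = 1.79e-19), and Mansc4 at 155 against 1.0. VM held Cpxm2 at 3813, above MM, and Mansc4 at 2.01. Of 17 tested adipocyte lineage markers, 6 were higher in SM and 3 lower. They summed to 1038 to 1350 CPM in SM and 457 to 660 in MM, although the median log2 difference of the list was 0.12. Abundant members weigh most in such a sum, among them Dlk1 (1.04), which was also counted among the imprinted genes. Cebpa, Fabp4, Plin1 and Adipoq were not called. The higher markers included Aoc3 (281 against 26.1, log2 difference 3.44), the early B cell factors Ebf3 (4568 against 945) and Ebf1 (2078 against 1014), and Lpl (4962 against 1938). The lower ones were Pparg (7.70 against 74.5), the master factor of fat cells, Cebpb (76.0 against 219) and Cd36 (266 against 1204).

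Besides the 6 Hox genes, the genes with no count in 1 tissue and a mean above 100 normalized counts in the other were mostly predicted genes and ribosomal protein pseudogenes. There were 9 such genes with counts in MM and 5 in SM, and none had counts in all 5 pools. The most abundant were Gm8430, seen in 3 SM pools, and Gm28635, seen in 4, as was Gm4202. Others were seen in 1 of the 10 pools: Rpl19-ps11, Gm12918 and Gm49450 in MM pool 3, Rps27rt in MM pool 1 and Rpl10-ps3 in SM pool 4. Gm28635 and Gm4202 were called higher in SM. Counts of pseudogenes depend on how reads were divided, and no direction is read from these genes. The predicted genes Gm10721 (21439 against 117898, adjusted p = 0.0355) and Gm10925 (4111 against 22345, adjusted p = 0.0322) passed the thresholds, but among SM pools Gm10721 ranged from 383 to 60404 and Gm10925 from 0 to 8358.

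Beyond the overlaps stated above, annotated exons of Bmp4, Bmp6, Ccnd1, Cdc20, Cebpb, Chrd, Elavl3, Fgf2, Fgfr2, Fstl3, Gdf5, Has3, Hoxa2, Hoxa3, Igfbp7, Irs1, Mest, Mfap4, Nid2, Pax9, Phox2a, Pth1r and Spred3 also overlap an exon of another gene, so reads may have been shared between them.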

How the data were processed

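RNA-Seq was done on 25 pools of dissected mesenchyme, 5 per tissue, of which the 5 E13.5 SM and 5 E13.5 MM pools were compared. The deposited values are expected counts per gene, estimated by the authors with Salmon 0.99.0 on mm10 after FastQC 0.11.8, MultiQC 1.9, Trimmomatic 0.39 and SortMeRNA 2.1, and they are whole numbers as deposited. The annotation release and the use of strand are not given in the sources used here. Salmon divides reads between similar genes, so counts of close paralogs and pseudogenes are uncertain.

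Symbols and coordinates were taken from GENCODE M21 (GRCm38, the build mm10), which matched 35505 of 35880 genes. The other 375 genes held 0.0805% of counts. No libraries held identical values. Counts were scaled with TMM factors, filtered with filterByExpr by tissue and fitted in edgeR 4.0.16 (R 4.3.3) with 1 mean per tissue over all 25 samples, robust quasi-likelihood dispersions and 20 residual degrees of freedom. The two-sided test of SM minus MM was adjusted by the Benjamini-Hochberg method over 17657 genes. The SE is the size of the log2 difference divided by the square root of F, and so is not separate from the test. DESeq2 1.42.0 was an alternative, and the fit was tested on simulated data. The labels show the litter of no pool, so the fit treated all pools as independent. The p-values therefore rest on the spread between pools within tissues and may be too small where pools share a litter. Libraries of the 2 tissues held 23635931 to 34448304 counts, and floors and intervals cover counting error only.

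The members, the 49 gene lists and the rules were chosen with earlier results of these data known. Of 893 listed symbols 889 matched, and some members are not reported here. Named genes were the 32 that the study names for these tissues; in each direction the 8 called genes with the largest difference among those with a mean above 100, some count in the lower tissue and no overlap, and the 5 most abundant with a log2 difference of at least 2 and no overlap; up to 2 members per list and direction with a mean above 100 and no overlap; for cell types the called marker with the largest difference; and the 5 most abundant genes at 0 in the other tissue. Other list members named as examples were chosen after their values were seen. Promoter windows and motif matches came from RefSeq sequences of GRCm38.p6, read from 250 bases before the start, with 30 bases printed.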

Additional observations from a re-analysis of the deposited data

Results flagged for a closer look

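For 37 of 344 groups of 5 values, the gap between an extreme pool and its nearest neighbour took up more than 0.71 of the group's range, Dixon's limit at 95%, and 34 of them are given here. Chance alone flags about 1 in 20 groups of normally distributed values, and values of the same pool are not independent. A gene with counts in only 1 pool of a group is always flagged. This holds for the genes given below against 0, of which Hoxc8 in SM and Tlx2 in MM had 1 count each. SM pool 1 was the highest for Birc5 at 801 normalized counts against 539 to 594, Fmod at 2.69 against 0.900 to 0.994, Met at 523 against 104 to 199, Myf5 at 55.6 against 3.83 to 16.4, Rxrg at 61.0 against 12.6 to 23.1, Sostdc1 at 95.1 against 36.9 to 52.7 and Vegfd at 48.5 against 7.20 to 18.3 in the other 4 SM pools. SM pool 2 was the highest for Cdkn1c at 94975 normalized counts against 61314 to 68184, Hoxc8 at 0.959 against 0 and Rspo1 at 39.3 against 22.2 to 27.0 in the other 4 SM pools. SM pool 2 was the lowest for Tlx2 at 134 normalized counts against 189.9 to 206 in the other 4 SM pools. SM pool 4 was the highest for Fzd7 at 7529 normalized counts against 6343 to 6517, Igf2 at 66457 against 48455 to 53399.5 and Rpl10-ps3 at 3979 against 0 in the other 4 SM pools. SM pool 5 was the highest for Lyve1 at 68.6 normalized counts against 8.97 to 19.2 in the other 4 SM pools. MM pool 1 was the highest for Cma1 at 1025 normalized counts against 549 to 681, Efna3 at 274 against 239 to 243, Nr5a2 at 326 against 279 to 292, Rps27rt at 1734 against 0 and Tlx2 at 1.13 against 0 in the other 4 MM pools. MM pool 2 was the highest for Bdnf at 414 normalized counts against 269 to 301, Ltbp1 at 8066 against 6431 to 6837 and Phox2a at 3.83 against 0 to 0.784 in the other 4 MM pools. MM pool 3 was the highest for Aldh1a2 at 93.7 normalized counts against 49.8 to 58.3, Ccl11 at 143 against 44.2 to 71.2, Gm10925 at 48275 against 11216 to 20344, Gm12918 at 2030.2 against 0, Gm49450 at 3564 against 0, Rpl19-ps11 at 3782 against 0, Sfrp2 at 1867 against 1328 to 1447, Stmn3 at 7.81 against 0 to 1.57 and Tnr at 20.5 against 7.96 to 11.5 in the other 4 MM pools. MM pool 5 was the highest for Fos at 399.5 normalized counts against 349 to 356 in the other 4 MM pools. The summed skeletal muscle markers reached 878 CPM in SM pool 1 against 157 to 262 CPM in the other 4 SM pools. Met, Myf5 and Rxrg were highest in that same pool, and the part of muscle in them was not tested.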

How the results depend on the processing

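The comparison was recomputed under 19 alternatives. The count of called genes, 5314 as reported, was 5330 with DESeq2, 5299 with the size factors of DESeq2, 5454 with total counts alone, 5253 with no expression filter, 4980 when the mean of both tissues had to exceed 50, 5431 when only the 10 samples were fitted, and 5127 to 5512 when single pools were left out. The 3 pools left out together, an alternative chosen after seeing the data, gave 5665. Shared calls made up 93.7 to 99.3% of the reported calls, and no gene called in the reported fit was called in the opposite direction in any alternative. The balance, 2758 higher and 2556 lower, was 3155 and 2299 with total counts alone and 2673 and 2758 in the 10-sample fit. Among the 161 named genes, the fitted value of Gm49450 ranged from -12.81 to 0 when single pools were left out. It was 0 without MM replicate 3 and with the 3 pools left out, since no other SM or MM pool held it, and DESeq2 alone called it. VM and FP held it at means of 2730 and 103 normalized counts. Boc, Dct, Gm10721, Gm10925, Gm28635, Klf1 and Pkp1 lost their call in at least 1 alternative, and Gm10721 and Gm10925 did so without MM replicate 3. In the lists, the lower Hedgehog genes were 1 in place of 2 with total counts alone or without MM replicate 1 or 2, and the higher cartilage markers were 1 in place of 3 without SM replicate 1. Replicate numbers did not pair the pools, since same-numbered deviations correlated at -0.059 to 0.067 and no number matched best with itself. The replicate block gave 5317 calls over 25 samples and 5418 over the 10, and of the named genes it removed the calls of Dct, Gm10721, Gm10925 and Gm28635.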
